A study of Mus musculus with 11 samples.

Results

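GABAergic interneurons are the inhibitory cells of the cortex, and the genes described here are 10 that mark them: Gad1, Gad2, Slc32a1, Dlx1, Lhx6, Sst, Pvalb, Adarb2, Vip and Reln. They were chosen by name out of 53465 genes in the count files, from textbook knowledge of interneuron classes but with earlier results of these data known. All 10 passed the filter on low counts, which left 17093 genes. RNA was sequenced in bulk from CRF1+ neurons of the medial prefrontal cortex (mPFC), sorted by fluorescence from male CRF1:GFP mice, a transgenic line in which GFP marks cells that express the corticotropin releasing factor receptor CRF1. Each of the 11 libraries held the sorted cells of 1 mouse, so n counts mice. The 6 naïve mice received air and the alcohol dehydrogenase inhibitor pyrazole. The 5 withdrawn mice were injected with ethanol (1.75 g/kg) and pyrazole (68.1 mg/kg) and exposed to ethanol vapor intermittently over 5 to 6 weeks, and were taken after 5–8 days of abstinence. All mice were adults of at least 10 weeks and carried the reporter. For withdrawn mice 3, 4 and 5, another of the labels says control, and the design text lists 5 control and 6 ethanol mice, so values without these 3 mice are also given.

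Cortical interneurons make GABA with the enzymes encoded by Gad1 and Gad2 and load it into vesicles with the transporter encoded by Slc32a1. They arise in the ventral forebrain, where Dlx homeobox factors set the GABAergic fate. Cells from the medial ganglionic eminence (MGE) keep Lhx6 and become mainly the somatostatin (Sst) and parvalbumin (Pvalb) classes, whereas cells from the caudal ganglionic eminence (CGE) mostly carry Adarb2 and become the Vip class and most of the neurogliaform cells, many of which make reelin (Reln).

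Between 7351567 and 22244869 reads per mouse were counted on genes, and 3 counts in a library, the floor used here, correspond to 0.135 to 0.408 CPM (counts scaled to TMM-normalized library sizes). As cDNA was amplified from 160 pg of RNA, reads are not independent molecules and this floor covers counting error alone. Crhr1, the gene of the receptor that defined the sort, averaged 92.7 ± 21.5 CPM in naïve (SD, n = 6) and 89.3 ± 33.6 CPM in withdrawn mice (SD, n = 5). Slc17a7, the vesicular glutamate transporter of excitatory cortical neurons, ranged from 738 to 1928 CPM. Per length, Gad1, Gad2 and Slc32a1 together came to between 0.887 and 26.6 for every 100 of Slc17a7. In a bulk library, fewer cells of a type and less RNA per cell cannot be told apart.

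Sst and Vip, the neuropeptide genes of which one led among the class markers in every library, are shown first by the 250 bases before their start, because both are textbook targets of cyclic AMP signaling through a response element with the core TGACG. Adarb2 is shown as the marker of the CGE lineage that had counts in every mouse. Sequences are from RefSeq on GRCm38.p6 and are written 5′ to 3′ on the gene's strand. Capitals mark TGACGTCA in Sst (chr16:23890845-23891094, minus strand), TGACG in Vip (chr10:5638968-5639217, plus strand) and TAATTA, a core bound by many homeodomain factors, in Adarb2 (chr13:8202616-8202865, plus strand).
Sst: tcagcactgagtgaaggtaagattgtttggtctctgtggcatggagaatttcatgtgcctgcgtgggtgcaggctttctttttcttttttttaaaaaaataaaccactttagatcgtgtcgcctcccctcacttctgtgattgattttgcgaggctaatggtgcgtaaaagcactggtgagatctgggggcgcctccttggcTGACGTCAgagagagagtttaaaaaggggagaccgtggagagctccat
Vip: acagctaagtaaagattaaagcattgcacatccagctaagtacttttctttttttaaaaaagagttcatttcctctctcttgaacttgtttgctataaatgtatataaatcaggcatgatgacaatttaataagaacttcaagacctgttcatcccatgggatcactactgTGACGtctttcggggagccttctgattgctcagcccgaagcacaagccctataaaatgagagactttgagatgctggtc
Adarb2: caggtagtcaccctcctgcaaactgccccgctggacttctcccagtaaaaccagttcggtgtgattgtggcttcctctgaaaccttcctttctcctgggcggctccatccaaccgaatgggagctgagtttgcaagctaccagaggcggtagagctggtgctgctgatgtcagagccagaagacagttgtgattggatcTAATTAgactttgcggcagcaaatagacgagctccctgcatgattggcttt
The full palindrome TGACGTCA, which contains TGACG on both strands, began 48 bases before the Sst start and was in no other of the 10 genes. It is present in 1.55% of the 32851 promoter windows of this length. TGACG on either strand was in the windows of Gad2, Sst and Vip, and is in 17.8% of all windows. TAATTA, which reads the same on both strands, was only in that of Adarb2 among the 10 genes and is in 4.84% of all windows. A match of letters is a description and not a measured site. The GENCODE model of Sst begins further upstream, inside the window shown.

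Which interneuron classes the libraries held differed widely from mouse to mouse within both groups. The Vip class gene and the CGE gene Adarb2 had counts in all 11 mice. Sst, in contrast, ran from 0 to 699 CPM, with 3 mice at 289 CPM or more, 2 at 23.3 and 32.6 CPM and 6 at or under 3 counts. Pvalb was low throughout. Within each library, the levels of Sst, Vip, Reln and Pvalb per kilobase of exon were set as shares of their sum, which does not depend on depth. Sst held the highest share in 5 mice (4 naïve and 1 withdrawn) and Vip in the other 6 (2 naïve and 4 withdrawn). The Sst share was 97.2% in naïve mouse 1, 98.1% in mouse 2, 55.8% in mouse 3, 2.11% in mouse 4, 1.49% in mouse 5 and 96.2% in mouse 6. Among withdrawn mice it was 0% in mice 1, 2 and 3, 84.1% in mouse 4 and 0.433% in mouse 5. The groups therefore overlapped, with naïve mice 4 and 5 on the side of most withdrawn mice and withdrawn mouse 4 on the side of most naïve mice. The Vip share ran from 1.51% to 91.1% in naïve mice and from 8.54% to 97.8% in withdrawn mice. Neither Pvalb (at most 5.05%) nor Reln (at most 11.2%) led in any mouse.

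**Figure D1:**
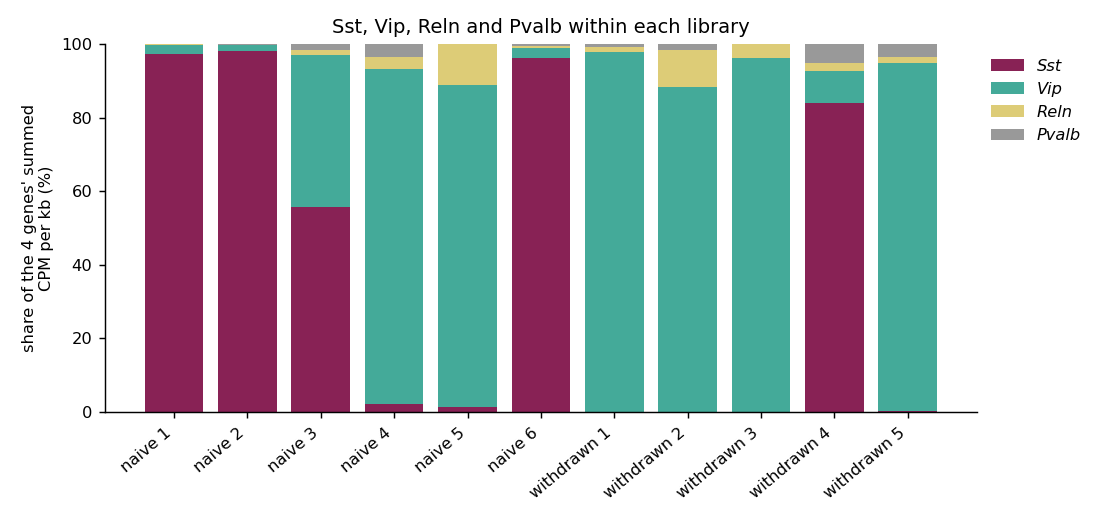
Share of Sst, Vip, Reln and Pvalb in their summed level (CPM per kilobase of exon, in percent) in each of 6 naïve and 5 withdrawn libraries. Sst fills over 50% of the bar in 5 mice and Vip in the other 6; with the longest transcript as length, Sst is over 50% in 4 mice.

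The genes shared by all GABAergic neurons were measured in nearly every library. Gad1 (chr2:70553072-70602014, plus strand), which encodes the enzyme behind most basal GABA synthesis, was between 33.3 and 150.0 CPM in naïve mice (median 75.7). In withdrawn mice 1 to 5 it was at 325, 277, 11.2, 78.4 and 85.4 CPM. The lowest and the 2 highest values of all mice were thus in the withdrawn group, and the groups overlapped. Gad2 (chr2:22622205-22693874, plus strand), whose enzyme sits at nerve terminals, ranged from 11.9 to 62.4 CPM in naïve mice (median 49.97) and was at 62.9, 130, 7.52, 24.1 and 62.9 CPM in withdrawn mice 1 to 5. Withdrawn mouse 3 was again the lowest and mouse 2 the highest. Slc32a1 (chr2:158610767-158615748, plus strand) was low, at 0 to 3.27 CPM in naïve mice (median 2.01) and at 3.03, 1.90, 0.374, 1.23 and 3.82 CPM in withdrawn mice 1 to 5. Its only library without a count was naïve mouse 5. Of its 2797 exonic bases, 697 overlap Gm14205 on the other strand, and whether counting used the strand is not given in the sources used here, so reads of both may be mixed.

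Dlx1 (chr2:71528113-71533981, plus strand), a homeobox factor that maintains interneurons, ran from 2.98 to 34.9 CPM in naïve mice (median 10.1). It was at 28.5, 59.5, 1.92, 5.78 and 29.4 CPM in withdrawn mice 1 to 5. As with Gad2, withdrawn mouse 2 was highest and withdrawn mouse 3 lowest. Dlx1 shares 335 exonic bases with Dlx1as on the other strand, under the same limit.

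Of the MGE genes, Sst and Lhx6 had the largest SD between mice among the 10 genes, and Pvalb did not. Sst (chr16:23889573-23890958, minus strand) had 6510, 8612, 249, 3, 1 and 4677 counts in naïve mice 1 to 6, or 699, 473, 23.3, 0.175, 0.0677 and 289 CPM. In withdrawn mice it had 0 counts in mice 1, 2 and 3, 265 in mouse 4 (32.6 CPM) and 1 in mouse 5 (0.0707 CPM). In 6 of the 11 libraries Sst was at or under the floor of 3 counts, whereas 3 naïve mice had at least 4677. A single mouse, withdrawn mouse 4, carried nearly all Sst reads of the withdrawn group. Lhx6 (chr2:36081953-36105408, minus strand), the LIM-homeobox factor of MGE-derived cells, had 22, 245, 9, 6, 0 and 97 counts in naïve mice 1 to 6 and 49, 31, 0, 37 and 0 in withdrawn mice 1 to 5. Its highest mouse, naïve mouse 2, was at 13.5 CPM, and 3 of the 4 mice highest in Lhx6 were also among the 4 highest in Sst. Withdrawn mice 1 and 2 had Lhx6 reads without any Sst read. Pvalb (chr15:78191114-78206400, minus strand), the calcium buffer of fast-spiking cells, did not exceed 2.83 CPM in any mouse. It ranged from 0 to 2.59 CPM in naïve mice (median 0.945) and was at 0.360, 1.57, 0, 2.83 and 0.849 CPM in withdrawn mice 1 to 5.

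Vip, Adarb2 and Reln, grouped here as the CGE genes among the 10, had counts in every library. Vip (chr10:5639218-5647617, plus strand) was at 18.8 to 89.6 CPM in naïve mice (median 36.9) and at 149, 259, 9.44, 15.6 and 72.7 CPM in withdrawn mice 1 to 5. Its lowest 2 and highest 2 values were all from withdrawn mice. Adarb2 (chr13:8202866-8768747, plus strand), which encodes an RNA-binding protein of the adenosine deaminase family, ran from 2.79 to 17.0 CPM in naïve mice (median 10.7) and was at 20.7, 57.4, 3.60, 9.84 and 14.3 CPM in withdrawn mice 1 to 5. Reln (chr5:21884454-22344702, minus strand), a secreted glycoprotein, was at 9.32 to 50.9 CPM in naïve mice (median 17.9) and at 15.1, 203, 2.66, 29.6 and 8.91 CPM in withdrawn mice 1 to 5. Withdrawn mouse 2 alone held 51.0% of the Reln CPM summed over the 11 mice. It also had the highest CPM of Gad2, Dlx1, Vip and Adarb2.

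**Figure D2:**
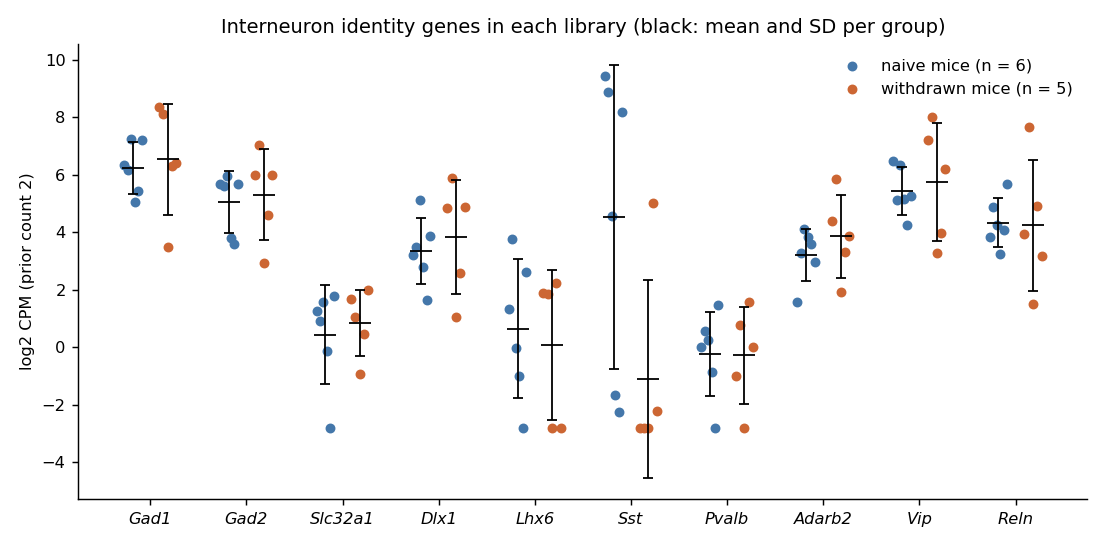
Level of each gene (log2 CPM, prior count 2) in each mouse, naïve in blue (n = 6) and withdrawn in orange (n = 5), with the mean and SD of each group in black. All 10 genes overlap between the groups, and Sst runs from 9.45 to the bottom of the scale at -2.80, where the count is 0.

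The ratio of Lhx6 to Adarb2, per length, was over 1 in 4 of the 5 mice in which Sst led. It was 2.31, 3.84 and 2.12 in naïve mice 1, 2 and 6 and 1.26 in withdrawn mouse 4. In the other 7 mice it was at most 0.464. These 7 included naïve mouse 3, at 0.136, where Sst led with a share of 55.8%. The 4 mice over 1 were the 4 with the highest Sst. With the length of the longest transcript in place of all exons, the value of withdrawn mouse 4 was 0.893.

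Ordered by the median level per kilobase over the 11 mice, Vip came first (11.2 CPM per kb), followed by Gad1 (10.5) and Gad2 (8.70). Vip exceeded Gad1 in 8 of 11 mice, and Gad1 exceeded Gad2 in 11 of 11. Dlx1 followed at 2.06 CPM per kb, below Gad2 in 11 of 11 mice and above Adarb2 (0.904) in 10 of 11. From Adarb2 down, through Pvalb (0.825), Reln (0.7104) and Slc32a1 (0.680) to Lhx6 (0.492), each gene exceeded its lower neighbor in only 6 or 7 of the 11 mice, and their order was not resolved. Sst was last by its median (0.242) and first by its highest mouse (970), and Lhx6, next above it, exceeded it in 2 mice. Its mean was 343 ± 406 CPM per kb in naïve mice (SD, n = 6) and 9.06 ± 20.2 in withdrawn mice (SD, n = 5), so that each SD exceeded its mean. Levels of genes with several transcripts depend on the length used: with the longest transcript, Gad1 came before Vip (medians of 22.3 and 15.1 CPM per kb), and the naïve mean of Gad1 was 24.4 in place of 11.5 CPM per kb. Adarb2 and Reln then preceded Pvalb, and Lhx6 and Slc32a1 were at 0.679 and 0.680.

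None of the 10 genes differed between withdrawn and naïve mice in the test across all genes. With edgeR's quasi-likelihood test and Benjamini-Hochberg adjustment, and thresholds of 0.05 on the adjusted p and 0.6 on the size of the log2 fold change, 0 of 10 were called, and 0.00585% of the 17093 genes tested were called (1 gene). DESeq2 also called 0 of the 10, and 1.66% of the 21849 genes it tested. At an unadjusted p under 0.05, edgeR had 1 of the 10 (Sst), and 7.22% of all genes in either direction. No gene of the 10 had groups that did not overlap, against 0.948% of all genes. By direction alone, 8 were higher and 2 lower in withdrawn mice, with a median log2 fold change of 0.68 (0.02 over all genes tested). Among all genes tested, 8852 were higher and 8241 lower. With limma voom, these 8 of the 10 were negative. Several of the 10 varied together between mice, so their directions are not separate results.

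Sst had a log2 fold change of -5.33 (SE 2.07, unadjusted p = 0.0221, adjusted p = 0.545, edgeR). Genes lower in withdrawn mice at this unadjusted level made up 2.22% of all genes. The two-sided exact permutation test of the mean log2 CPM over all 462 splits of the mice gave a difference of -5.64 and p = 0.0584. Individual mice decided on which side of 0.05 this value fell: the exact p was 0.0397 without naïve mouse 4, 0.0238 without naïve mouse 5 and 0.0286 without withdrawn mouse 4. These are the mice whose Sst went against the group difference. With any other single mouse left out, the exact p was between 0.0635 and 0.0905. Without withdrawn mice 3, 4 and 5, both remaining withdrawn mice had no Sst read, and the difference was -7.31 (exact permutation p = 0.143). Without naïve mouse 1, 2, 3 or 6, Sst no longer passed the filter on low counts and had no edgeR value. The other gene with a negative fold change was Lhx6, at -0.74 (SE 1.47, adjusted p = 0.961, edgeR), and it was 0.25 without naïve mouse 2.

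Of the GABA genes, Gad1 had a log2 fold change of 0.82 (SE 0.63), Gad2 of 0.53 (SE 0.60), Slc32a1 of 0.20 (SE 0.98) and Dlx1 of 0.93 (SE 0.75). Their adjusted p-values in edgeR were 0.864, 0.914, 0.984 and 0.868. The CGE genes had values of similar size, with 1.03 (SE 0.68) for Vip, 1.01 (SE 0.62) for Adarb2 and 1.16 (SE 0.84) for Reln, and Pvalb was at 0.09 (SE 1.178). Adjusted p-values in edgeR were 0.822 for Vip, 0.805 for Adarb2, 0.852 for Reln and 0.993 for Pvalb. For Reln and Pvalb the difference in mean log2 CPM had the other sign (-0.09 and -0.05; exact permutation p = 0.939 and 0.942). Leaving out withdrawn mouse 2 turned Reln to -0.76 and Gad2 to -0.02 on the log2 scale, and lowered Gad1 to 0.49, Dlx1 to 0.31, Vip to 0.31 and Adarb2 to 0.19. Without withdrawn mice 3, 4 and 5, Vip differed by 2.13 in mean log2 CPM (exact permutation p = 0.0357, the smallest p that 6 against 2 mice allow), where all 11 mice gave 0.30 and p = 0.751. The differences without these 3 mice were 1.94 for Gad1, 1.40 for Gad2 and 1.85 for Adarb2 (exact permutation p = 0.0714 for each), 1.97 for Dlx1 (exact p = 0.107) and 0.87 for Slc32a1 (exact p = 0.571). With all 11 mice they were 0.30, 0.25, 0.64, 0.50 and 0.41.

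**Figure D3:**
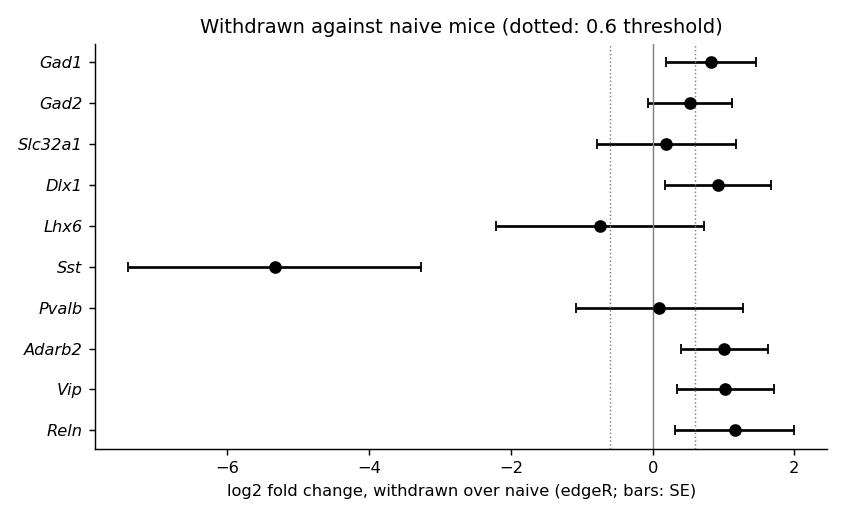
Log2 fold change of withdrawn over naïve mice (edgeR, bars show the SE, n = 6 and 5) for the 10 genes. Sst lies at -5.33 with an SE of 2.07, and the other 9 lie between -0.74 and 1.16.

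Mice of the same group differed widely in these genes. The SD of log2 CPM between mice within groups had a median of 1.54 over the 10 genes, against 0.685 over all genes tested, and 10 of 10 were above that median. Since low genes vary more, each gene was also set against the genes of like level, in 20 bins of 854 or 855 genes. Against these, 8 of the 10 were above the median of their bin and 6 above its 90th percentile (Gad1, Gad2, Sst, Vip, Lhx6 and Reln). Gad1, at an SD of 1.46, compared with a bin median of 0.383, and Vip, at 1.51, with 0.423. Sst had an SD of 4.57, and its biological coefficient of variation in edgeR was 2.11 where the trend for its level was 0.294. Slc32a1 (1.496) and Pvalb (1.57) were below the medians of their bins, 1.65 and 1.72.

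**Figure D4:**
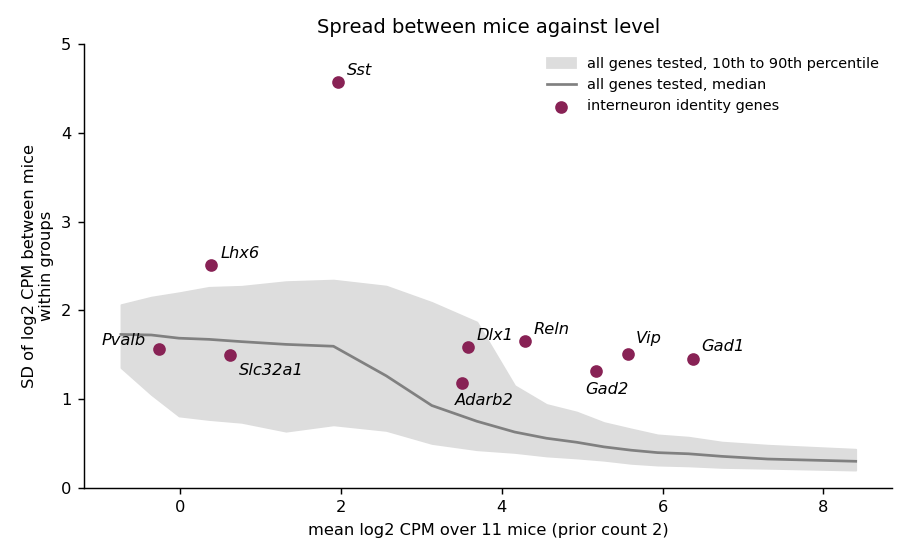
SD of log2 CPM between mice within groups against the mean log2 CPM over 11 mice, with the 10 genes as points, the median of all genes tested as a line and their 10th to 90th percentile as a band. Gad1, Gad2, Vip, Reln, Lhx6 and Sst lie above the band.

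Over the 11 mice, taken as deviations from the group means, Gad1 and Gad2 varied together (Pearson r = 0.893 in log2 CPM), and so did Gad2 with Dlx1 (r = 0.938) and Dlx1 with Vip (r = 0.903). Sst went with Lhx6 (r = 0.706) and hardly with Vip (r = -0.01). Reln, grouped here with the CGE genes, had r = 0.653 with Adarb2 and 0.542 with Vip, and 0.658 with Lhx6 and 0.665 with Pvalb. Each point of these correlations is 1 library and shares its depth and its sorted cells. When all genes tested were ranked by their correlation with the mean of Gad1, Gad2 and Slc32a1, the 10 highest outside the 10 genes were Lpar4 (r = 0.945), Hspg2, Dlx6 (r = 0.939), Haus4, Ap1s2, Med20, Dnah7b, Htr7, Gm12522 and 1700080N15Rik (r = 0.883). Dlx5 was also among the 50 highest. Leaving out the 10 genes, the median rank percentile of the pan-GABAergic list was 99.5, that of the MGE list 80.9, that of the Sst class 76.4 and that of the Vip class 73.2. It was lower for the CGE list (64.3), the Sncg and Cck class (64.2), the Pvalb class (60.2) and the neurogliaform class (49.0). Lists of other cells ran from 20.6 (oligodendrocyte) to 87.0 (endothelial), with 68.4 for striatal projection neurons and 59.1 for glutamatergic neurons.

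Lists of marker genes that include the 10 were also described. Gad1, Gad2, Slc32a1 and Dlx1 are in the pan-GABAergic list. Lhx6, Adarb2, Sst, Pvalb, Vip and Reln are each in the list of their lineage or class. Counts and medians of these lists therefore hold values already given and are not separate results. Among 12 pan-GABAergic identifiers (2 of them named Dlx6os1, and 11 tested), 10 were higher and 1 lower in withdrawn mice and 0 were called. The median log2 fold change was 0.82. Dlx2, a partner of Dlx1, was at 0.123 to 40.9 CPM, and Dlx6os1, an RNA from the Dlx5 and Dlx6 locus, at 0.644 to 83.2 CPM. Dlx6os1 had a log2 fold change of 2.43 (SE 0.90, unadjusted p = 0.0172, adjusted p = 0.495, edgeR), and its highest mouse was withdrawn mouse 2, as for Dlx2. All 6 genes of the Vip class were higher in withdrawn mice (median 1.00 on the log2 scale), but none had an unadjusted p under 0.05. Calb2, a calcium-binding protein, had 0.43 (SE 0.69), the peptide gene Tac2 1.54 (SE 0.97) and Crh 0.19 (SE 1.20). Of the 6 genes of the CGE list, which holds Adarb2 but not Vip or Reln, 5 were higher (median 0.96). The nuclear receptor gene Nr2f2 had 1.33 (SE 0.54, unadjusted p = 0.0268, adjusted p = 0.582, edgeR), Npas1 0.29 (SE 0.67) and the serotonin receptor gene Htr3a -0.17 (SE 1.33).

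Of the MGE list, 4 of 5 genes were tested, with 1 higher and 3 lower (median -0.44). Satb1 (-0.14, SE 0.49) and Sox6 (0.45, SE 0.95), both transcription factors of MGE-derived cells, had adjusted p-values of 0.979 and 0.964 in edgeR. In the Pvalb class list, 4 of 6 were tested, and Kcnc2, a potassium channel of fast-spiking cells, had 0.45 (SE 0.36) and Pthlh 0.61 (SE 0.66). Tac1, the substance P precursor, had -5.39 (SE 1.87, unadjusted p = 0.0123, adjusted p = 0.457, edgeR). It was at 34.7, 9.44 and 20.9 CPM in naïve mice 1, 2 and 6, at 6.52 CPM in naïve mouse 4 and at most 1.48 CPM in the other 7 mice. Lists of the neurogliaform class (6 tested, median -0.22) and of the Sncg and Cck class (3 tested, median -0.02) had medians near 0: Lamp5 had -0.39 (SE 0.23), Id2 0.18 (SE 0.26) and Rxfp1 -0.52 (SE 0.46), and Cck had -0.20 (SE 0.27) and Cnr1 -0.02 (SE 0.20). Cck, Cnr1, Lamp5, Id2, Calb1 and Satb1 are also expressed by excitatory cortical neurons. Sncg did not pass the filter and ranged from 0 to 4.62 CPM.

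Npy and, in part, Crhbp followed Sst across the libraries, and other genes of its class did not. Of the Sst class list, 7 of 8 were tested, with 1 higher and 6 lower in withdrawn mice, 0 called and a median of -0.40. Npy, the peptide that many Sst cells also make, was at 184, 203, 2.06, 0, 4.94 and 117 CPM in naïve mice 1 to 6 and at 2.67, 0, 2.24, 84.6 and 63.7 CPM in withdrawn mice 1 to 5. The 4 mice with the highest Npy were those with the highest Sst, naïve mice 1, 2 and 6 and withdrawn mouse 4. Withdrawn mouse 5 departed from this, with 63.7 CPM of Npy and 1 count of Sst. So did naïve mouse 3, which was close to withdrawn mouse 4 in Sst (23.3 against 32.6 CPM) but had 2.06 CPM of Npy. Crhbp, which binds the CRF peptide, was at 15.1 to 32.4 CPM in naïve mice 1, 2 and 6 and at most 6.27 CPM in the others, including 0.984 in withdrawn mouse 4. Its log2 fold change was -2.997 (SE 1.56, adjusted p = 0.755, edgeR), that of Npy -1.48 (SE 1.495, adjusted p = 0.902). Calb1 had -0.25 (SE 0.35) and did not separate these mice, at 58.5 to 258 CPM over all 11. Nor did Grin3a (14.3 to 83.0 CPM), Elfn1 (0.224 to 12.2 CPM) or Nos1 (4.06 to 38.8 CPM), whose log2 fold changes were -0.23 (SE 0.38), -0.40 (SE 0.68) and 0.0005 (SE 0.41). Most Chodl reads, which mark long-range Sst cells, were in 3 mice (7.63 CPM in naïve mouse 2, 2.83 in withdrawn mouse 4 and 2.52 in withdrawn mouse 1).

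Of the 4 endothelial genes, 3 were highest in the same 4 mice, as was the sum of all 4. The summed CPM of the 4 endothelial genes was 392, 336 and 600 in naïve mice 1, 2 and 6 and 432 in withdrawn mouse 4, and it was between 3.18 and 144 in the other 7. Naïve mouse 3, where Sst was at 23.3 CPM, was among these 7, with a sum of 94.2 CPM. It had 9.09 CPM of Cldn5 and 0.0937 CPM of Gfap. Cldn5, the tight junction gene, was at 52.2 to 115 CPM in these 4 mice and at 0 to 12.2 CPM in the others, and Ly6c1 at 147 to 239 against 2.98 to 54.1 CPM. Pecam1 was not split this way: it was highest in withdrawn mouse 2 (64.8 CPM), and at 16.4, 27.6, 51.7 and 52.9 CPM in these 4 mice. Naïve mouse 5 had no reads of Cldn5 or Flt1. Flt1, already counted among the 3 endothelial genes above, and Gfap were picked after their values were seen. Gfap, an astrocyte filament gene, was at 4.55 to 41.6 CPM in the 4 mice and at most 0.420 CPM in the other 7. As a gene picked in this way, it is a description alone. Slc1a3, also of the astrocyte list, was at 15.04 to 70.6 CPM in the 4 mice and at 1.40 to 9.41 CPM in the others. Aqp4 was at 1.61 to 10.62 against 0 to 0.937 CPM. The remaining astrocyte genes were not split this way, with Aldh1l1 at 5.58 to 18.5 against 0 to 16.8 CPM. Gja1 was at 19.5 to 273 against 0 to 309 CPM. Aqp4 and Aldh1l1 were also named after their values were seen. The sum of the astrocyte list was not split either (47.4 to 355 against 9.41 to 322 CPM). The glutamatergic list was at 1402 to 2638 CPM in the 4 mice and at 1832 to 3222 CPM in the others. The part that endothelial and astrocyte RNA, or how the cells were taken, has in the Sst values was not tested. Nor was it for the fibroblast list, which ran from 0.0677 to 58.9 CPM in naïve mice and from 10.9 to 1283 CPM in withdrawn mice.

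**Figure D5:**
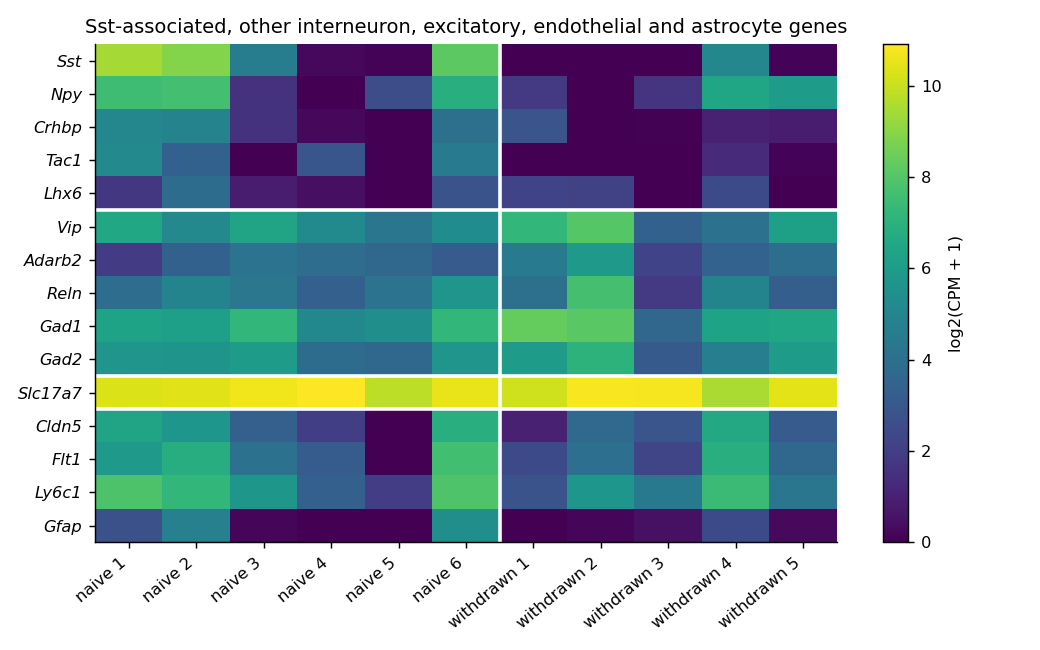
Level (log2 of CPM + 1, color) in each mouse of Sst, Npy, Crhbp, Tac1 and Lhx6, of other interneuron genes, of Slc17a7, and of the endothelial genes Cldn5, Flt1 and Ly6c1 with the astrocyte gene Gfap. Sst, Npy, the endothelial genes and Gfap are brightest in naïve mice 1, 2 and 6 and withdrawn mouse 4.

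How much of the interneuron set was detected also differed by library. Over 3 counts, all 10 genes were found in naïve mice 1, 2, 3 and 6 and withdrawn mouse 4, whereas naïve mouse 5 had 6 and withdrawn mouse 3 had 7. Of 53 interneuron list genes, naïve mouse 5 had 31 and naïve mouse 2 had 50. Withdrawn mouse 3 had 33 of the 53 genes. The same 2 libraries, naïve mouse 5 and withdrawn mouse 3, also had the fewest genes with a count over the whole table (15585 and 22551, against 22981 to 31830 in the other 9). In naïve mouse 5, 5.77% of the reads tallied fell outside genes, against 13.3% to 48.1% in the others. The part of these differences in the interneuron counts was not tested.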

How the data were processed

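RNA was measured in mPFC CRF1+ neurons sorted from 6 naïve and 5 withdrawn male mice. The authors trimmed reads (cutadapt 1.18), mapped them to GRCm38 (STAR 2.5.2a, Ensembl 91) and counted them per gene (HTSeq 0.11.0). The deposited values are raw counts, neither normalized nor pooled. Gene models and lengths came from GENCODE M21 and promoters from RefSeq, both on GRCm38. In the count files, 53274 of 53465 identifiers had a symbol, and all 10 genes matched in each source.

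Mice were grouped by title and treatment. Counts were fitted with edgeR 4.0.16 in R 4.3.3 (TMM, filterByExpr with minimum count 10 and minimum total 15, quasi-likelihood test, Benjamini-Hochberg adjustment over 17093 genes). DESeq2 1.42.0 and limma 3.58.1 (voom with sample quality weights) were alternatives, together with other normalizations and filters, a replicate block, and mice left out. The SE is the log2 fold change divided by the square root of F. Log2 CPM used a prior count of 2 (alternative 0.5). Replicate numbers are shared between groups but belong to different animals. Libraries were checked for duplicates: chi-square per degree of freedom was at least 29.3 within groups. The edgeR fit and the exact permutation test were tested on simulated data.

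The genes and lists were chosen with earlier results of these data known. Besides the 10 genes and Crhr1, the text names per interneuron list up to 3 genes with the highest mean CPM per kb, per list of other cells up to 2, and the 10 genes most correlated with Gad1, Gad2 and Slc32a1. Some genes this rule names are not reported here. Chodl, Flt1, Gfap, Aqp4, Aldh1l1 and Csf1r were named after their values were seen.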

Additional observations from a re-analysis of the deposited data

Results flagged for a closer look

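In 5 of 32 sets of values (10 genes and 6 ratios in each group), 1 mouse stood apart from the rest of its group by Dixon's criterion, where chance gives about 1.6. Sst in withdrawn mouse 4 (5.03 in log2 CPM, group median -2.80) was the first, and the same mouse stood apart in its Sst share (84.1%, group median 0%) and its Vip share (8.54%, group median 94.3%). The Reln share was apart in naïve mouse 5 (11.2%, group median 0.949%), where Vip held 87.3%, and in withdrawn mouse 2 (9.96%, group median 2.32%), which had the highest Reln level. The 32 sets are not independent, since shares within a library come at each other's expense and follow the gene levels. The 5 flags therefore cannot be read as an excess over 1.6.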

How the results depend on the processing

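Of the 10 genes, 0 were called in each of the 10 alternatives and with each mouse left out, among those in the fit. With at least 10 counts in every mouse, Slc32a1, Pvalb, Sst and Lhx6 were not in it, and Sst was not in 4 of the 11 fits with a mouse left out. Among all genes, 1 was called, 137 without a low-count filter, 30 with at least 10 counts in every mouse, 362 by DESeq2, and 0 both with a replicate block and without the 3 mice with conflicting labels. With 1 mouse left out it was between 0 and 193, the highest without withdrawn mouse 2. Same-numbered mice did not deviate together (correlations from -0.200 to 0.182), and the replicate block changed the call of none of the 10 genes. Signs of 8 genes turned with limma voom, to -0.090 for Gad1, -0.18 for Gad2, -0.026 for Slc32a1, -1.54 for Pvalb, -0.037 for Vip, -0.041 for Adarb2, -1.22 for Reln and -0.14 for Dlx1. Without the 3 mice, the log2 fold change of Pvalb was -0.18, and the difference in mean log2 CPM was 0.082 for Pvalb, 1.17 for Lhx6 and 1.42 for Reln. On total counts it was 0.0024 for Pvalb. With 1 mouse left out, log2 fold changes ran from 0.34 to 1.11 for Gad1, 0.31 to 1.32 for Vip, 0.19 to 1.27 for Adarb2, 0.31 to 1.51 for Dlx1, -0.024 to 0.81 for Gad2, -0.16 to 0.46 for Slc32a1, -0.58 to 0.61 for Pvalb, -1.15 to 0.25 for Lhx6 and -0.76 to 1.56 for Reln. Differences in mean log2 CPM ran from -0.17 to 1.04 for Gad1, -0.19 to 0.82 for Gad2, -0.23 to 0.83 for Slc32a1, -0.56 to 0.55 for Pvalb, -0.28 to 0.90 for Vip, -1.26 to 0.13 for Lhx6, -0.96 to 0.57 for Reln and -0.028 to 1.178 for Dlx1. Sst stayed negative in the 7 of 11 such fits that held it (-13.2 to -5.00, where low values depend on the prior count) and in all 11 differences (-7.22 to -4.68). The causes were not tested.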

Other observations

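Among lists of other cells, excitatory genes had small values (Slc17a7 -0.08, SE 0.24, and Neurod6 -0.40, SE 0.23, as log2 fold changes of withdrawn over naïve mice). Of the genes of striatal projection neurons, Penk had 1.07 (SE 0.42, adjusted p = 0.553, edgeR) and Ppp1r1b -0.45 (SE 0.25), and of immature neurons Tubb3 had -0.17 (SE 0.17) and Sox11 -0.16 (SE 0.38). Among glial genes, Gja1 had 3.61 (SE 0.96, adjusted p = 0.250, edgeR), Slc1a3 -0.63 (SE 1.02), Mbp -0.37 (SE 0.27), Mobp -0.21 (SE 0.43), Pdgfra 1.31 (SE 1.16), Cspg4 0.02 (SE 1.11) and Tmem119 3.75 (SE 1.47, adjusted p = 0.558, edgeR). Of the 4 astrocyte genes tested, only Gja1 was higher, with Aqp4 at -1.02 (SE 1.60) and Aldh1l1 at -0.13 (SE 0.94). Of the 2 microglia genes tested, the one beside Tmem119 was Csf1r, at -0.26 (SE 1.59). The fibroblast genes Col1a1 (4.88, SE 1.13) and Ogn (5.36, SE 1.24) had adjusted p-values of 0.157 and 0.156 in edgeR. C1qa, of microglia, did not pass the filter and was at 0 to 3.92 CPM. None of the 17 lists held a called gene in edgeR.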
